A study of Mus musculus with 34 samples.

Results

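Thymocytes in which Lck-Cre acted on 2 floxed alleles of Bcl11b (Bcl11b flx/flx Lck-Cre, called HOM here) were compared with DN3 thymocytes that carried the same Cre transgene and no floxed allele (Bcl11b +/+ Lck-Cre, called WT DN3). The comparison used 5 HOM and 5 WT DN3 libraries, 10 of the 34 libraries of the series, chosen by genotype and by the sorted population that the labels name. All cells came from C57BL6/J mice, were CD4- and CD8-double-negative (DN) thymocytes, carried Lck-Cre and were sorted as CD25-positive and positive for a yellow fluorescent protein (YFP), so Cre was present on both sides. The labels call the WT cells DN3 and give no stage for the HOM cells. They give neither age nor sex of the mice, and do not say whether each library came from its own animal, so p-values reflect only how much these libraries vary, which may be technical. Each library was made from RNA of 300000 cells and read as 50-nt single ends.

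Bcl11b encodes a zinc-finger transcription factor that is switched on while thymocytes commit to the T lineage, between the DN2 and DN3 stages. Without it, early thymocytes are known to drift toward innate lymphoid and natural killer (NK)-like fates. Id2 encodes an inhibitor that binds E proteins, the basic helix-loop-helix factors on which early T cells depend, and Zbtb16 encodes PLZF, a BTB zinc-finger factor of innate-like T cells and of innate lymphoid cell precursors. The Lck proximal promoter drives Cre from about the DN2 to DN3 transition on.

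Total counts ran from 20102653 to 31716317 per HOM library and from 17285214 to 43105091 per WT DN3 library. Levels are given as RPKM, reads per kilobase of exon and per 1000000 counted reads, which sets genes of different length on 1 scale. Values for single libraries are listed in the order of replicates 1 to 5, means carry their SD over 5 libraries, and log2 changes (HOM minus WT DN3) with their standard errors (SE) come from edgeR's quasi-likelihood test with Benjamini-Hochberg adjustment over 11717 genes. A gene was called, or is said to have risen or fallen, at an adjusted p under 0.05. In bulk RNA, fewer cells of a kind and less RNA per cell cannot be told apart. 3 HOM libraries and 1 WT DN3 library carried RNA that set them apart. HOM replicates 2 and 3 held epithelial transcripts such as Clu and Krt8, HOM replicate 4 held transcripts of pluripotent stem cells such as Pou5f1, and WT DN3 replicate 5 held more RNA of DN2-stage genes such as Cpa3. Their values stand beside the results they touch, and counts are given with and without them.

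Bcl11b RNA, the check of the deletion, was lower in every HOM library and was not lost in any. Bcl11b (chromosome 12, 109148613 to 109241624, build mm9) stood at 33.02, 55.3, 55.04, 58.3 and 46.3 RPKM in HOM and at 124, 114, 89.1, 103 and 101 RPKM in WT DN3. The groups did not overlap, and HOM replicate 1 was the lowest library. The mean was 49.6 ± 10.3 RPKM in HOM and 106 ± 13.5 in WT DN3 (log2 change -1.11, SE 0.15, adjusted p = 1.42e-04, edgeR). The counts cover all exons of the gene, and the labels do not say which exons are floxed, so the RNA left in HOM can come from undeleted exons, from undeleted alleles or from both, which cannot be told apart.

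Id2 rose in all 5 HOM libraries to levels that varied little. It stood at 63.3, 52.2, 57.7, 50.1 and 47.3 RPKM in HOM and at 4.70, 3.84, 4.0002, 3.34 and 3.61 RPKM in WT DN3 (log2 change 3.79, SE 0.12, adjusted p = 4.05e-09, edgeR). Zbtb16 was close to silent in WT DN3, at 0.0113, 0.0286, 0.0113, 0.0132 and 0.105 RPKM, and stood at 17.6, 17.1, 22.6, 16.8 and 14.4 RPKM in HOM (log2 change 8.72, SE 0.37, adjusted p = 3.27e-08, edgeR). WT DN3 replicate 5 held the most Zbtb16 RNA of its group, and without it the log2 change was 10.08. Without HOM replicates 2 and 3 the log2 changes of Bcl11b, Id2 and Zbtb16 were -1.22, 3.78 and 8.61, and all 3 remained called. Deposited columns of 10 libraries of the other Lck-Cre groups were displaced against the gene names in part of the rows and were moved back before use. The DN2 cells were sorted as YFP-negative and the HET DN3 cells as YFP-positive. In these groups Id2 had means of 14.04 RPKM in WT DN2 (4 libraries), 22.1 in cells with 1 floxed allele (HET) at DN2 (5 libraries) and 19.1 in HET DN3 (6 libraries), all below the lowest HOM library. The same means of Zbtb16 were 0.235, 0.252 and 0.116 RPKM.

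**Figure D1:**
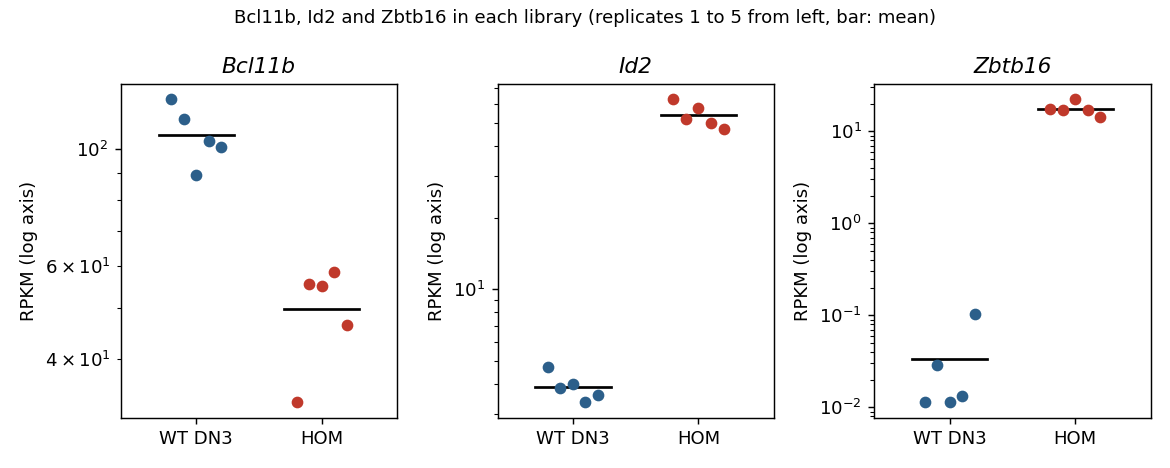
RPKM of Bcl11b, Id2 and Zbtb16 (log axis) in each of the 5 HOM and 5 WT DN3 libraries, 1 point per library with the group mean as a bar. The 5 HOM libraries sit below all WT DN3 libraries for Bcl11b (33.02 to 58.3 against 89.1 to 124 RPKM) and above all of them for Id2 and Zbtb16.

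The promoter of Id2 is shown with those of Cd3d and Ccr9, a T-cell receptor subunit gene and a chemokine receptor gene that fell, because E proteins, which Id2 inhibits, bind E-box sequences. Each run holds the 250 bases before the RefSeq start (build GRCm38.p6), 5′ to 3′ on the strand of the gene, with the E-boxes CAGCTG and CACCTG, read on both strands, in capitals.
Id2, chr12:25096093-25096342, minus strand: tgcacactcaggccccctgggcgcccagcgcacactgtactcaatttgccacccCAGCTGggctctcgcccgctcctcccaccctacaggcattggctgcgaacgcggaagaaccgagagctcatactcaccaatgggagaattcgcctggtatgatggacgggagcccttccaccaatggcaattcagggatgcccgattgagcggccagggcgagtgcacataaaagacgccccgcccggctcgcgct
Cd3d, chr9:44981536-44981785, plus strand: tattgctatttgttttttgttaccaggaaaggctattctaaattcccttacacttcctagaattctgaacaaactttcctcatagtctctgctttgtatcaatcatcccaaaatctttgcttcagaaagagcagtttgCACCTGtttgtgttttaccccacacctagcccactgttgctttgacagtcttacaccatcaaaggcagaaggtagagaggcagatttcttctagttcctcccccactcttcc
Ccr9, chr9:123766961-123767210, plus strand: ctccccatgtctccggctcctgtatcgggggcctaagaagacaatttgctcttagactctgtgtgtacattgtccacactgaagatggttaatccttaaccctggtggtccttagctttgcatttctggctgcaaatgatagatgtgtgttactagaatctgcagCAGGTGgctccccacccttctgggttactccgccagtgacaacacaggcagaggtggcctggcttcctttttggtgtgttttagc
The Id2 promoter held CAGCTG, the Cd3d promoter held CACCTG and the Ccr9 promoter held CACCTG on its other strand (CAGGTG). RefSeq promoters matched 8886 of the 11717 genes by symbol. CACCTG lay in the same window of 14.7% of these, of 17.8% of the 681 matched genes that rose at least 2-fold and of 24.7% of the 369 that fell at least 2-fold. CAGCTG lay in 10.8%, 15.3% and 12.7% of them, and TGTGGT, the core that RUNX factors bind, in 10.9%, 14.4% and 8.40%. The median share of G and C in these windows was 59.6% over all matched genes, 58.0000% over the higher and 60.4% over the lower ones, and windows were not matched on it, so the shares of motifs are descriptions with no test. A match is a stretch of letters and not a measured binding site.

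Across all genes the change was broad and mostly small. Of 11717 genes tested, 5192 were called (44.3%), 2770 higher (23.6%) and 2422 lower (20.7%), while the median log2 change over all genes was 0.02. 3749 of the calls lay under 2-fold. Counts of list members given below stand beside these shares, 23.6% higher and 20.7% lower, and were not tested against them. At 2-fold or more, 924 genes rose (7.89%) and 519 fell (4.43%). With all libraries, the excess of higher genes grew with the size of the change. At 4-fold 464 genes were higher and 125 lower, and at 16-fold 214 and 14. These counts at 4-fold and 16-fold were not repeated without the HOM libraries that held epithelial or stem-cell RNA. The part of that RNA in the excess was not tested. Library values of HOM and WT DN3 did not overlap for 3667 genes (31.3%). Of the genes that rose at least 2-fold, 469 had a mean under 1 RPKM in WT DN3, and 164 a mean under 0.1 RPKM. Their median level went from 0.931 to 5.25 RPKM, and that of the genes that fell from 6.61 to 2.08 RPKM, of which 152 ended under 1 RPKM.

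**Figure D2:**
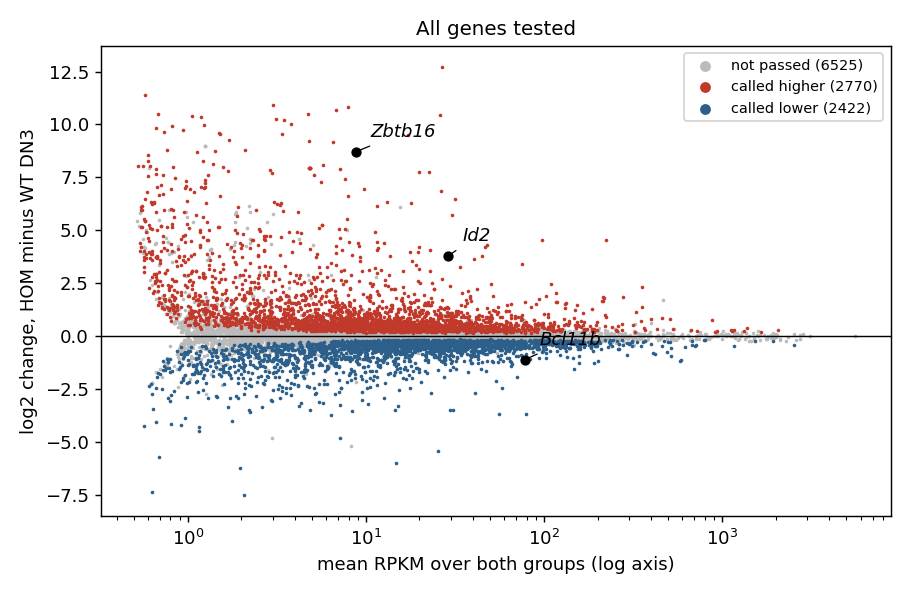
Log2 change in HOM against WT DN3 (y axis) of all 11717 genes tested, against their mean RPKM over both groups (log x axis), with called genes in colour and Bcl11b, Id2 and Zbtb16 labelled. At 16-fold or more, with all libraries, 214 called genes lie above and 14 below the line of no change.

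The calls held largely without the libraries that stood apart. Without HOM replicates 2 and 3, 4518 genes were called (2458 higher, 2060 lower), and 4063 of them were among the 5192 called with all libraries. 104 genes called with all libraries dropped under the filter of 1 RPKM without these 2, and 1025 were tested and missed the threshold in the smaller set. No called gene changed direction in that smaller set. Of the genes that rose at least 2-fold 779 of 924 remained called, and of those that fell 479 of 519. Without HOM replicate 4, 5435 genes were called. Without HOM replicates 2, 3 and 4 the number was 4407, of which 3751 were among the 5192. Of the others called with all libraries, 1292 missed the threshold there and 149 lay under the filter. For 1 of them, the glutathione transferase gene Gsta4, the log2 change turned from 2.80 to -0.66. Of the genes at 2-fold or more, 712 of 924 higher and 466 of 519 lower ones remained called without HOM replicates 2, 3 and 4. Without WT DN3 replicate 5, 4638 genes were called, 2555 higher and 2083 lower. Of the genes described below, Bcl11a, Ccr4, Nkg7, Psmb8 and Socs3 missed the threshold without HOM replicates 2 and 3 (edgeR adjusted p = 0.101, 0.0771, 0.15, 0.0699 and 0.0875). Cd44, Itgal, Mpzl2, Ptcra and Slc2a1 missed it without replicates 2, 3 and 4 (edgeR adjusted p = 0.101, 0.0847, 0.098, 0.0807 and 0.0808).

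HOM libraries differed in how far they stood from WT DN3. HOM replicate 5 held the highest HOM level of 260 of the 519 genes that fell at least 2-fold (50.1%), whereas HOM replicate 1 held the lowest level of 210 and HOM replicate 4 of 197. Among the 924 genes that rose at least 2-fold, HOM replicate 4 held the lowest HOM level of 374 (40.5%) and HOM replicate 5 of 285, and HOM replicate 2 held the highest of 297. On the WT side, WT DN3 replicate 5 held the highest WT level of 354 of the 924 (38.3%). A principal component analysis of all genes tested placed the groups apart on its first component (58.9% of the variance), with HOM replicate 5 nearest to WT DN3, and HOM replicate 4 apart from the other 9 libraries on the second (15.4%).

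**Figure D3:**
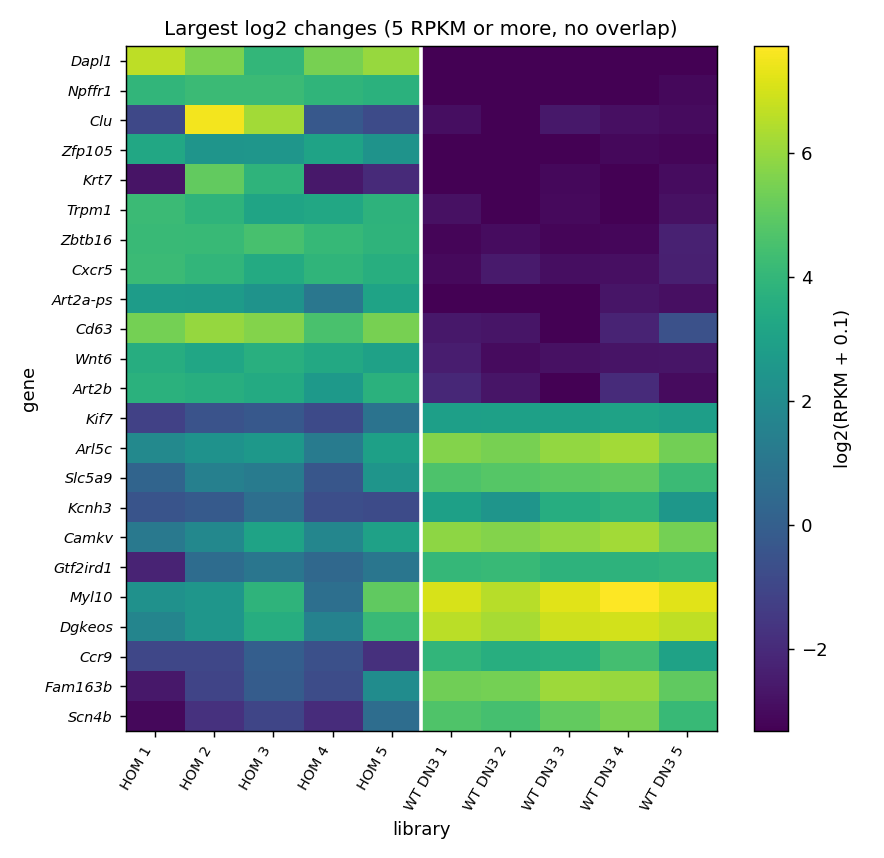
Log2 of (RPKM + 0.1) in each library (columns) for the 12 higher genes and 11 of the 12 lower genes with the largest log2 changes (rows), among genes with at least 5 RPKM in the higher group and no overlap of the groups, coloured from low to high. The higher genes are at or below 0.574 RPKM in all WT DN3 libraries, Clu and Krt7 are high in HOM replicates 2 and 3 alone, and several lower genes keep more RNA in HOM replicate 5 than in the other HOM libraries.

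Among genes at 5 RPKM or more in the higher group and with no overlap between groups, those with the largest increases had almost no RNA in WT DN3 and belong to no single pathway. Dapl1, which encodes a small death-associated protein, had no count in WT DN3 and stood at 96.98, 46.7, 15.9, 43.6 and 65.2 RPKM in HOM, at least 1445-fold higher against a floor of 3 counts over the group. Npffr1, the gene of a neuropeptide receptor, stood at 15.2, 18.2, 18.4, 14.7 and 13.4 RPKM in HOM and had 1 count in WT DN3, all of it in replicate 5, a ratio of 3054 (95% counting interval, 548 to 120651, which covers counting error only). Zfp105, a zinc-finger gene, stood at 9.65, 5.38, 5.43, 8.29 and 5.04 RPKM in HOM and had 2 counts in WT DN3, a ratio of 965 (95% counting interval 267 to 7971). All 5 HOM libraries held RNA of these genes, with Dapl1 varying most among them. Trpm1, a cation channel gene, stood at 18.6, 14.5, 8.65, 9.84 and 14.02 RPKM in HOM and at 0.0397, 0, 0.0198, 0 and 0.0398 RPKM in WT DN3. Cxcr5, which encodes a chemokine receptor of follicular lymphocytes, stood at 18.5, 15.5, 10.6, 14.7 and 11.9 against 0.0222, 0.0746, 0.0331, 0.0386 and 0.0977 RPKM. Wnt6, the gene of a secreted WNT ligand, stood at 11.6, 9.17, 12.5, 10.1 and 7.78 against 0.0842, 0.0236, 0.0419, 0.0489 and 0.0563 RPKM. None of these 3 genes exceeded 0.1 RPKM in any WT DN3 library. Their log2 changes were 9.16 (SE 0.42), 7.91 (SE 0.29) and 7.60 (SE 0.25). Adjusted p-values of edgeR were 5.53e-08, 1.27e-08 and 5.22e-09. Cd63, a tetraspanin gene of secretory granules, stood at 42.5, 63.7, 51.2, 23.3 and 44.3 RPKM in HOM and at 0.0651, 0.0548, 0, 0.113 and 0.574 RPKM in WT DN3 (log2 change 7.76, SE 0.54, adjusted p = 1.33e-06, edgeR). Without WT DN3 replicate 5 its log2 change was 9.53, that of Trpm1 9.76, and without WT DN3 replicate 4 that of Art2b 7.85. The other genes of the 12 were Zbtb16, described above, and Clu and Krt7, described with the epithelial RNA. The neighbouring ADP-ribosyltransferase genes Art2b and Art2a-ps rose together, from 0.0744 to 11.1 and from 0.0181 to 5.74 RPKM, and reads of such close copies may be shared between them.

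Some of these genes also had RNA in cells with 1 floxed allele and others had little. Mean levels in HET DN3 were 9.16 RPKM for Cxcr5, 32.8 for Cd63, 3.90 for Art2b and 2.02 for Art2a-ps. For Dapl1, Npffr1, Zfp105, Trpm1 and Wnt6 they were 0.110, 0.0740, 0.00931, 0.110 and 0.0524 RPKM. Only Cxcr5, Cd63, Art2b and Art2a-ps passed 1 RPKM there. These levels are set side by side with no test.

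The genes with the largest decreases, among those at 5 RPKM or more in the higher group and with no overlap, kept some RNA in HOM. For most of them it was highest in HOM replicate 5. Scn4b, which encodes a sodium channel beta subunit, stood at 0.0182, 0.197, 0.402, 0.164 and 1.44 RPKM in HOM and at 25.9, 21.9, 33.96, 45.8 and 17.3 RPKM in WT DN3 (log2 change -6.02, SE 0.66, adjusted p = 3.27e-05, edgeR). Fam163b stood at 0.0654, 0.379, 0.825, 0.491 and 4.06 RPKM in HOM and at 39.7, 43.1, 67.96, 65.1 and 32.1 RPKM in WT DN3. Ccr9, the receptor for the thymic chemokine CCL25, stood at 0.412, 0.408, 0.891, 0.544 and 0.186 RPKM in HOM and at 15.1, 12.1, 12.9, 21.05 and 8.04 RPKM in WT DN3. Scn4b and Fam163b were highest in HOM replicate 5 within their group, whereas Ccr9 was lowest there. Without that library the log2 changes of Scn4b and Fam163b were -7.15 and -6.79 instead of -6.02 and -5.42. Gtf2ird1, a transcription factor gene, went from 15.4 ± 1.45 to 1.32 ± 0.735 RPKM. Camkv, a kinase-like gene, went from 56.8 ± 11.4 to 5.03 ± 2.90 RPKM, and Kif7, a kinesin gene of Hedgehog signalling, from 7.63 ± 0.367 to 0.770 ± 0.553. Their log2 changes in edgeR were -3.55, -3.50 and -3.32, with adjusted p-values of 9.76e-05, 1.96e-05 and 2.81e-05. Myl10, a myosin light chain gene, spread from 1.54 to 32.4 RPKM over the HOM libraries, highest in replicate 5, against 92.6 to 211 RPKM in WT DN3 (log2 change -3.66, and -4.47 without that replicate). Dgkeos, Kcnh3, Slc5a9 and Arl5c were also among the 12 lower genes, with log2 changes of -3.67, -3.48, -3.48 and -3.48. Dgkeos is named as the opposite strand of Dgke, and the sources used here do not say that strand was counted, so its reads may be shared.

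By absolute level the comparison turned on a few very abundant RNAs. Tmsb10, which encodes an actin-binding thymosin, stood at 509, 691, 534, 793 and 458 RPKM in HOM and at 105, 105, 112, 102 and 161 RPKM in WT DN3 (log2 change 2.34, SE 0.19, adjusted p = 3.70e-06, edgeR). Cd163l1, a scavenger receptor cysteine-rich gene of gamma-delta T cells, stood at 508, 435, 452, 295 and 445 RPKM in HOM and at 28.5, 18.4, 13.1, 16.1 and 13.9 in WT DN3. Gzma, a granzyme gene, stood at 494, 425, 507, 379 and 752 RPKM in HOM and at 189, 183, 229, 203 and 174 in WT DN3. All 3 had higher values in each HOM library than in any WT DN3 library. B2m, the light chain of MHC class I, rose from 649 ± 120.4 to 1107 ± 363 RPKM and overlapped between groups (log2 change 0.76, SE 0.20, adjusted p = 0.0101, edgeR). Rpl13a and Rpl10, both ribosomal protein genes, rose by 0.30 and 0.39 on the log2 scale. Among the lower genes, Cd3g stood at 307, 304, 334, 249 and 594 RPKM in HOM and at 678, 667, 815, 946 and 935 in WT DN3, Crip1, a LIM-domain gene, went from 810.2 ± 151 to 369 ± 74.02 RPKM, and Tuba1b, a tubulin gene, from 1354 ± 121 to 997 ± 129. Rps14 and Rpl8 had log2 changes of -0.42 and -0.23. They missed the threshold without HOM replicates 2 and 3 (edgeR adjusted p = 0.187 and 0.141), Rps14 missed the threshold with any 1 of HOM replicates 2, 3 or 4 or WT DN3 replicates 3, 4 or 5 left out (edgeR adjusted p = 0.0541 to 0.105), and Rpl8 missed the threshold with any 1 of HOM replicates 2, 3 or 4 or WT DN3 replicates 3 or 5 left out (edgeR adjusted p = 0.0612 to 0.0889).

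Genes of the T-cell receptor complex and its proximal signalling moved in both directions. Of 31 genes, 15 fell and 8 rose, with a median log2 change of -0.22, against 20.7% and 23.6% of all genes tested. Cd3d stood at 66.9, 80.3, 77.2, 49.4 and 103 RPKM in HOM and at 224, 178, 240.2, 263 and 197 in WT DN3 (log2 change -1.56, SE 0.17, adjusted p = 3.05e-05, edgeR). Cd3e went from 379 ± 52.9 to 204 ± 34.7 RPKM, and Ptcra, the pre-TCR alpha chain, from 91.1 ± 24.2 to 39.6 ± 19.1, with HOM replicate 5 at 71.4 RPKM inside the WT DN3 range. Cd247, the CD3 zeta chain, did not pass the test, at 95.99 ± 6.48 in WT DN3 and 102 ± 4.11 RPKM in HOM. The CD3 chains thus differed among themselves. The inhibitory scavenger receptor genes Cd5 and Cd6 fell (log2 change -2.07 and -2.405), as did Cd28 (log2 change -1.19). Plcg1, the phospholipase downstream of the receptor, went from 57.2 ± 3.78 to 17.95 ± 7.998 RPKM. The kinase gene Lck and the adaptor gene Lat had smaller log2 changes of -0.74 and -0.80. In the other direction, the kinase gene Txk stood at 24.7, 16.3, 19.6, 6.01 and 18.9 RPKM in HOM and at 2.22, 1.41, 1.16, 1.47 and 1.05 in WT DN3. The adhesion receptor gene Cd2 stood at 55.02, 53.2, 25.4, 36.2 and 33.8 RPKM in HOM and at 8.40, 7.97, 2.74, 3.19 and 2.55 in WT DN3. No HOM library of either gene overlapped with WT DN3. Both rose, with log2 changes of 3.56 (SE 0.34) and 3.07 (SE 0.38), and Ptprc and Themis rose by 0.71 and 0.83 on the log2 scale.

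The adaptor genes Fcer1g and Tyrobp, which pair with innate receptors, rose while Cd3d, Cd3e and Cd3g fell. Fcer1g, which encodes the Fc receptor gamma chain, stood at 67.4, 63.8, 65.2, 41.03 and 76.3 RPKM in HOM and at 0.267, 0.374, 0.531, 0.413 and 1.497 RPKM in WT DN3 (log2 change 6.46, SE 0.36, adjusted p = 2.68e-07, edgeR). Tyrobp, which encodes DAP12, stood at 16.5, 17.3, 24.6, 7.83 and 20.4 RPKM in HOM and at 0.517, 0.523, 0.361, 0.481 and 4.19 RPKM in WT DN3 (log2 change 3.73, SE 0.70, adjusted p = 0.00129, edgeR). Both were lowest in HOM replicate 4 and highest, within WT DN3, in replicate 5. Without that WT library their log2 changes were 7.21 and 5.20. Syk, the kinase they recruit, rose by 0.54, but missed the threshold without HOM replicates 2 and 3 (edgeR adjusted p = 0.0588). Hcst, which encodes the adaptor DAP10, did not pass the test, at 9.59 ± 1.44 RPKM in WT DN3 and 13.4 ± 3.79 in HOM (edgeR adjusted p = 0.107). Without HOM replicates 2 and 3 Hcst was called higher (log2 change 0.63, edgeR adjusted p = 0.0485). The same held without HOM replicate 2 alone and without replicates 2, 3 and 4 (edgeR adjusted p = 0.0347 and 0.0138). In all, 4 of the 11 adaptor genes rose and 4 fell, the 3 CD3 genes and Sh2d2a. That was 36.4% each way, beside 23.6% higher and 20.7% lower over all genes tested.

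NK-cell receptor genes stayed mostly silent. Only 5 of 28 reached 1 RPKM in a group, and 4 of these rose. Cd160 stood at 25.96, 24.8, 20.2, 15.1 and 22.8 RPKM in HOM and at 1.15, 0.933, 1.24, 1.17 and 1.80 in WT DN3, and Il2rb, the receptor chain for interleukins 2 and 15, at 17.5, 11.1, 18.9, 10.8 and 10.99 against 0.754, 0.617, 0.300, 0.401 and 0.735 RPKM. Cd244, of the SLAM family, rose by 4.40 (5.80 without WT DN3 replicate 5) and Slamf6 by 1.14 on the log2 scale. Ncr1 and Klrb1c, which define NK cells, had means of 0.183 and 0.725 RPKM in HOM and 0 and 0.266 in WT DN3, under the filter. Of 11 cytotoxic granule genes 6 rose (54.5%) and 2 fell (18.2%), beside 23.6% and 20.7% of all genes tested. Srgn, the granule proteoglycan, went from 74.02 ± 14.7 to 188 ± 19.2 RPKM, and Serpinb9, an inhibitor of granzyme B, from 2.04 to 7.14. Gzmb did not pass the test (adjusted p = 0.305, edgeR), and Prf1, which encodes perforin, had means of 0.129 RPKM in WT DN3 and 0.300 in HOM. Nkg7 and Rab27a, both of granule release, fell (log2 change -1.23 and -1.27), but Nkg7 missed the threshold with any 1 of HOM replicates 1, 2 or 3 or WT DN3 replicates 4 or 5 left out (edgeR adjusted p = 0.0556 to 0.086). Among cytokine genes 8 of 21 were tested and 2 rose: Tnfsf10, the death ligand TRAIL, from 5.91 ± 0.602 to 34.2 ± 3.13 RPKM, and the chemokine gene Xcl1 from 0.188 to 2.54 RPKM (log2 change 3.92, and 4.81 without WT DN3 replicate 1).

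Transcription factor genes of innate lymphoid cells moved in both directions, with the largest changes upward. Of 19 innate lymphoid factors 8 rose (42.1%) and 5 fell (26.3%), beside 23.6% and 20.7% of all genes tested. Of 22 T-lineage factors 4 rose (18.2%) and 5 fell (22.7%), near those shares. The difference between these lists was not tested, and the lists share Gata3 and Tox. Nfil3, an early innate lymphoid regulator, stood at 18.6, 11.6, 13.1, 13.4 and 13.1 RPKM in HOM and at 0.873, 0.857, 0.753, 0.795 and 0.805 in WT DN3 (log2 change 4.09, SE 0.15, adjusted p = 1.27e-08, edgeR). Pou2af1, a coactivator of octamer-binding factors, stood at 50.2, 34.4, 28.2, 33.2 and 39.1 RPKM in HOM and at 2.03, 2.398, 1.96, 2.54 and 2.55 in WT DN3 (log2 change 3.996, SE 0.16, adjusted p = 2.49e-08, edgeR). Runx3 and Ikzf2 rose from 16.5 to 41.7 and from 10.6 to 24.9 RPKM. Sox13, a factor of gamma-delta T cells, went the other way and stood at 5.60, 5.40, 8.32, 4.43 and 9.71 RPKM in HOM and at 25.4, 26.1, 24.004, 25.8 and 33.3 in WT DN3. Zeb2 and Ahr fell (log2 change -1.70 and -0.78). Tbx21 and Eomes, the T-box factors of NK cells, had means of 0.233 and 0.0999 RPKM in HOM, beside 0.388 and 0.0189 in WT DN3.

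Most core T-lineage factors changed by less than 2-fold or did not pass the test. Tcf7 went from 843 ± 43.2 to 737 ± 12.4 RPKM (log2 change -0.20), and Gata3, Runx1, Ets1 and Lef1 did not pass the test, at 53.5, 40.1, 149.5 and 142 RPKM in HOM beside 46.6, 41.7, 157 and 117 in WT DN3. Gata3 was called without HOM replicate 4 (edgeR adjusted p = 0.0299). Spib, an Ets-family gene of early thymocytes, was the exception among the T-lineage factors, at 1.62, 1.92, 2.62, 1.22 and 3.03 RPKM in HOM and 14.9, 12.5, 18.8, 23.7 and 14.4 in WT DN3 (log2 change -3.02, SE 0.25, adjusted p = 4.22e-06, edgeR). Gfi1, a repressor gene, fell (log2 change -0.78), and Ikzf1 and Satb1 rose by 0.46 and 0.45 on the log2 scale, with Satb1 past the threshold with all libraries but not without HOM replicates 2 and 3 (edgeR adjusted p = 0.128). Among progenitor factors 9 of 18 were tested, 3 fell (Bcl11a, Hoxa7 and Zfpm1, log2 change -1.66, -1.05 and -0.24) and 0 rose. Bcl11a missed the threshold with any 1 of HOM replicates 2, 3 or 4 or WT DN3 replicates 1, 4 or 5 left out (edgeR adjusted p = 0.0516 to 0.0705), and its log2 change was -2.27 without HOM replicate 5. Hhex and Lyl1 had higher means in HOM, 6.19 against 1.201 and 6.09 against 2.06 RPKM. WT DN3 replicate 5 held 4.88 and 9.62 RPKM, and neither gene passed in the main edgeR fit (adjusted p = 0.0535 and 0.309). With all 10 libraries both passed in limma (adjusted p = 0.0056 and 0.0386). Both also passed in edgeR with a replicate block (adjusted p = 0.00431 and 0.0077). Hhex was also called without HOM replicate 4 (adjusted p = 0.0388, edgeR) and in DESeq2 (adjusted p = 0.0321). In edgeR it further passed at 5 RPKM or more (adjusted p = 0.0485) and with 15 and 25 libraries in the fit (adjusted p = 0.0295 and 0.0364). Without WT DN3 replicate 5 the log2 changes of Hhex and Lyl1 were 4.43 (edgeR adjusted p = 7.17e-05) and 5.13 (adjusted p = 9.87e-05).

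All 6 tested genes of the E-protein and Id families were called, and Id4 lay under the filter. Id1 rose beside Id2, at 5.51, 11.4, 5.63, 6.74 and 2.88 RPKM in HOM and 0.373, 0.943, 0.712, 0.687 and 0.474 in WT DN3 (log2 change 3.31, SE 0.39, adjusted p = 5.91e-05, edgeR), and was highest in HOM replicate 2. Id3, the Id gene that pre-TCR signals induce, fell, at 15.3, 22.9, 15.6, 18.5 and 12.5 RPKM in HOM and 37.8, 38.5, 45.02, 38.7 and 31.2 in WT DN3. Tcf3, the gene of E2A, fell (log2 change -0.55), and Tcf12 and Tcf4, the genes of HEB and E2-2, rose by 0.47 and 0.55. Of the 6 members 4 were higher and 2 lower.

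Other families of DNA-binding factors also moved. Of 11 Kruppel-like factor genes 6 rose (54.5%) and 3 fell (27.3%), beside 23.6% and 20.7% of all genes tested. Klf2, a quiescence and egress factor of lymphocytes, stood at 14.2, 11.3, 7.94, 14.4 and 19.8 RPKM in HOM and at 2.65, 1.61, 0.954, 1.19 and 1.47 in WT DN3, and Klf4 at 5.20, 5.99, 6.11, 5.01 and 3.45 against 0.686, 0.289, 0.0664, 0.0443 and 0.0917 RPKM. Both were high in all HOM libraries, and without WT DN3 replicate 1, the highest WT library for Klf4, its log2 change was 5.47 instead of 4.58. Klf5 was high only in HOM replicates 2, 3 and 4 (4.45, 1.61 and 5.06 RPKM), the 3 HOM libraries that stood apart. Klf13 rose by 0.81, and Klf16 fell (log2 change -1.06). Among 39 BTB zinc-finger genes, beside Zbtb16 only Zbtb10 (log2 change 3.02) and Zbtb7b, the gene of ThPOK (2.74), changed at least 2-fold. Of the 39, 13 rose (33.3%) and 4 fell (10.3%), beside 23.6% and 20.7% of all genes tested. These numbers were, without HOM replicates 2 and 3, 6 higher and 6 lower, and 3 higher and 5 lower without replicates 2, 3 and 4. Zbtb7b reached 2.13 RPKM in HOM and missed the threshold without HOM replicates 2 and 3 (adjusted p = 0.052, edgeR), and without WT DN3 replicate 1 its log2 change was 3.39. Sox12 fell beside Sox13 (log2 change -1.34).

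Cytokine receptor genes moved in both directions, with 12 of 26 higher (46.2%) and 9 lower (34.6%), beside 23.6% and 20.7% of all genes tested. Il9r stood at 37.03, 42.3, 40.8, 25.9 and 29.03 RPKM in HOM and at 3.89, 3.67, 2.88, 3.06 and 3.39 in WT DN3 (log2 change 3.36, SE 0.15, adjusted p = 4.49e-08, edgeR). Il7r, whose product carries the main survival signal of early thymocytes, stood at 93.9, 106, 82.4, 84.4 and 89.6 RPKM in HOM and at 34.3, 36.04, 28.1, 32.2 and 31.6 in WT DN3 (log2 change 1.48, SE 0.08, adjusted p = 3.30e-07, edgeR). Kit, the stem cell factor receptor, stood at 59.3, 48.9, 50.1, 33.9 and 56.1 RPKM in HOM and at 8.21, 7.57, 7.41, 8.35 and 15.6 in WT DN3 (log2 change 2.38, SE 0.23, adjusted p = 1.17e-05, edgeR). WT DN3 replicate 5 was the highest WT library for Kit, and no WT library reached the lowest HOM library for any of the 3. Il10rb, Il12rb1, Il12rb2 and Flt3 rose by 1.497, 1.17, 0.95 and 6.33, with Flt3 reaching 1.27 RPKM and a log2 change of 6.97 without WT DN3 replicate 1. In the other direction Il10ra, the partner chain of Il10rb, stood at 1.14, 1.36, 1.66, 1.23 and 3.39 RPKM in HOM and at 10.9, 9.48, 11.5, 14.8 and 11.3 in WT DN3. Il21r, Il27ra and the interferon-gamma receptor genes Ifngr1 and Ifngr2 fell (log2 change -1.87, -1.64, -0.92 and -1.72). The 2 chains of the interleukin-10 receptor therefore moved in opposite directions. Of 15 STAT and SOCS genes downstream 6 fell (40%) and 2 rose (13.3%), beside 20.7% and 23.6% of all genes tested. Between 2 and 3 fell with any 1 of HOM replicates 1 or 2 or WT DN3 replicates 3 or 4 left out. Stat5a and Stat5b, which carry the interleukin-7 signal, fell (log2 change -0.52 and -0.44), and of the feedback inhibitors Socs3 fell (log2 change -0.72) but missed the threshold with any 1 of HOM replicate 2 or WT DN3 replicates 3 or 4 left out (edgeR adjusted p = 0.0531 to 0.066). Cish and Socs1 passed the test with all libraries, at -1.57 and 0.76, and missed it without HOM replicates 2 and 3 (edgeR adjusted p = 0.0918 and 0.0602). Cish also missed the threshold with any 1 of HOM replicates 1 or 2 or WT DN3 replicates 3 or 4 left out (edgeR adjusted p = 0.0619 to 0.0681), and Socs1 missed the threshold with any 1 of HOM replicates 1, 3 or 5 or WT DN3 replicates 1, 2 or 5 left out (edgeR adjusted p = 0.062 to 0.0954). Without HOM replicate 5 the log2 change of Cish was -2.21.

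Adhesion and homing genes moved in both directions. All 13 integrin subunit genes tested were called, beside 44.3% of all genes, 8 higher and 5 lower. Leaving out HOM replicates 2 and 3 gave 4 higher and 4 lower genes. Itgb7, of the gut-homing integrins, stood at 43.7, 33.9, 29.3, 15.99 and 43.99 RPKM in HOM and at 3.68, 3.01, 1.88, 1.68 and 3.84 in WT DN3 (log2 change 3.56, SE 0.32, adjusted p = 7.77e-06, edgeR), and Itga4, its partner, went from 46.1 ± 7.68 to 134 ± 19.3 RPKM. Itgb2, the common chain of leukocyte integrins, rose by 1.25, while Itgal, its LFA-1 partner, Itga5 and Itga6 fell (log2 change -0.38, -1.07 and -1.02). Itgae, the alpha chain that pairs with Itgb7 on intraepithelial cells, fell (log2 change -1.41). Itga3 was high in HOM replicates 2 and 3 (5.73 and 2.83 RPKM) and dropped under the filter without them, as did Itgb5. Of 10 chemokine receptor and egress genes 5 rose (50%) and 2, Ccr9 and Ccr4, fell (20%), beside 23.6% and 20.7% of all genes tested. Ccr2, Gpr183 and S1pr1 rose beside Cxcr5, with log2 changes of 2.53, 1.86 and 2.90. Ccr4 missed the threshold with any 1 of WT DN3 replicates 1 or 2 left out (edgeR adjusted p = 0.0513 to 0.0584), and without WT DN3 replicate 1 the log2 change of S1pr1 was 3.66. Evl, which encodes an actin regulator, stood at 49.4, 51.5, 46.9, 30.6 and 53.7 RPKM in HOM and at 8.49, 8.0004, 6.26, 4.67 and 8.36 in WT DN3, and was chosen after its values were seen.

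A few Notch target genes rose while the receptor genes Notch1 and Notch3 fell. Heyl, a transcriptional repressor gene that Notch induces, stood at 27.6, 25.03, 21.8, 20.7 and 26.4 RPKM in HOM and at 1.18, 1.16, 1.14, 1.05 and 1.13 in WT DN3 (log2 change 4.41, SE 0.10, adjusted p = 3.06e-10, edgeR), the smallest adjusted p of the genes named here. Nrarp, a feedback gene of the pathway, stood at 33.2, 18.8, 10.996, 14.2 and 43.9 RPKM in HOM and at 6.25, 4.01, 4.04, 4.59 and 6.54 in WT DN3 (log2 change 2.23, SE 0.36, adjusted p = 4.81e-04, edgeR), and Trib2 rose by 1.67. Notch3 stood at 22.5, 30.8, 34.8, 16.8 and 43.1 RPKM in HOM and at 114, 96.99, 115, 138 and 91.01 in WT DN3, and Notch1 went from 232 ± 10.99 to 144 ± 33.1 RPKM. Hes1 and Dtx1, further Notch targets of early thymocytes, did not pass the test, with log2 changes of -0.21 and 0.20. Of 21 pathway genes 6 rose and 4 fell (28.6% and 19.05%, beside 23.6% and 20.7% of all genes tested).

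Costimulatory and inhibitory receptor genes split as well, 5 of 14 higher and 4 lower. That was 35.7% and 28.6%, beside 23.6% and 20.7% of all genes tested. The number of higher genes was 3 with any 1 of HOM replicate 3 or WT DN3 replicates 3, 4 or 5 left out. Ctla4 went from 13.8 ± 2.35 to 3.54 ± 1.62 RPKM, Pdcd1, the gene of PD-1, from 14.8 ± 2.62 to 4.07 ± 1.69, and Cd200 from 3.08 ± 0.587 to 0.302 ± 0.222. Lag3 went the other way, from 1.55 ± 0.419 to 5.78 ± 2.44 RPKM, and Tnfrsf25 and Cd44 rose by 2.32 and 2.19 on the log2 scale. Of 6 SLAM receptor genes 4 rose and none fell, and Sh2d1a, the gene of their adaptor SAP, stood at 126, 118, 98.2, 99.4 and 108 RPKM in HOM and at 67.6, 74.7, 69.2, 58.9 and 54.9 in WT DN3.

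Markers of the DN2 and double-positive stages moved in both directions. Cpa3, a protease gene high in DN2 cells and mast cells, stood at 62.1, 51.9, 78.7, 25.8 and 87.9 RPKM in HOM and at 0.804, 1.01, 0.820, 0.980 and 26.2 in WT DN3, beside a mean of 58.005 in WT DN2. Replicate 5 was the high WT DN3 library, and without it the log2 change was 6.08 instead of 3.25. Without HOM replicates 2 and 3 Cpa3 missed the threshold (edgeR adjusted p = 0.0523). Kit and Cd9 stood at 49.7 and 28.8 RPKM in HOM, above the WT DN2 means of 23.5 and 8.15. Gata1, another gene of mast cells, fell to 0.366 ± 0.112 RPKM, from 1.67 ± 0.313 in WT DN3 and 2.14 in WT DN2, and Cma1, Mcpt4 and Tpsb2 had no count in either group. Of the 12 double-positive stage genes 3 fell, among them Arpp21 and Ccr9. Another 4 rose, or 2 without HOM replicate 2 or without WT DN3 replicate 5. With all libraries 25% of the 12 fell and 33.3% rose, beside 20.7% and 23.6% of all genes tested. Cd8a rose from 0.849 ± 0.423 to 6.69 ± 3.97 RPKM and Cd53 by 1.46, while Cd4 stood at 2.05 RPKM in WT DN3 and 2.10 in HOM, with HOM replicate 4 at 6.70. Il2ra, the gene of CD25 on which both groups were sorted, rose from 217 ± 26.9 to 329.6 ± 53.2 RPKM. Genotype and stage cannot be told apart in this comparison.

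Of the antigen receptor recombination genes, the one that rose was Xrcc6, which encodes the DNA-end binding protein Ku70. It stood at 465, 494, 432, 456 and 414 RPKM in HOM and at 199, 206, 208, 200.04 and 199 in WT DN3 (log2 change 1.15, SE 0.06, adjusted p = 1.59e-07, edgeR), a narrow spread in both groups. Its partner Xrcc5, the gene of Ku80, did not pass the test, at 24.7 RPKM in WT DN3 and 28.01 in HOM, except without HOM replicate 5 (edgeR adjusted p = 0.0215). Dntt, the gene of terminal transferase, stood at 301, 396, 397, 314 and 387 RPKM in HOM and at 613, 621, 691, 755 and 724 in WT DN3. Rag2, Xrcc4 and Nhej1 fell (log2 change -0.59, -0.64 and -0.67), and Rag1 did not pass, at 154 RPKM in WT DN3 and 144 in HOM. Nhej1 missed the threshold without HOM replicates 2 and 3 (edgeR adjusted p = 0.0524), and Rag2 without replicates 2, 3 and 4 (adjusted p = 0.0658). Of 12 genes 1 rose (8.33%) and 4 fell (33.3%), beside 23.6% and 20.7% of all genes tested. Ivns1abp, the gene of a protein that binds influenza NS1, chosen after its values were seen, stood at 453, 440.2, 425, 442 and 415 RPKM in HOM and 128, 131, 117, 129 and 104 in WT DN3.

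Genes of cholesterol synthesis fell together. Of 19 tested, 14 fell (background 20.7%) and 0 rose, with a median log2 change of -0.46. Dhcr7, which catalyses the last step of one branch, stood at 17.3, 19.7, 22.7, 18.2 and 21.7 RPKM in HOM and at 35.7, 32.7, 41.9997, 44.9 and 36.7 in WT DN3 (log2 change -0.96, SE 0.10, adjusted p = 2.81e-05, edgeR). Fdps, an enzyme of the isoprenoid branch point, stood at 40.5, 47.97, 56.7, 40.6 and 60.01 RPKM in HOM and at 78.9, 72.9, 100.3, 95.3 and 81.5 in WT DN3 (log2 change -0.82, SE 0.13, adjusted p = 4.20e-04, edgeR). For both the highest HOM library lay below the lowest WT DN3 library. Sqle, a squalene-oxidizing enzyme, and Srebf2, the regulator of the pathway, fell (log2 change -0.72 and -0.52). The other 5 did not pass, among them Cyp51 and Insig1 (log2 change -0.09 and -0.23), which were called without HOM replicates 2 and 3 (edgeR adjusted p = 0.0119 and 0.0493). Hmgcs1 is listed at 0 in all 10 libraries and was not tested. The count was also 14 lower without HOM replicates 2 and 3, and 14 without replicates 2, 3 and 4. Of 19 glycolysis genes 6 fell (31.6%) and 2 rose (10.5%), beside 20.7% and 23.6% of all genes tested. The 2 that rose were the glucose transporter genes Slc2a1 (0.64) and Slc2a3 (1.06). Slc2a1 missed the threshold without WT DN3 replicate 2 (edgeR adjusted p = 0.0513). Slc2a3 was highest in HOM replicate 4 (22.1 RPKM, against 10.98, 11.3, 11.8 and 10.6 in the others).

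Genes of antigen presentation rose more often than they fell. Of 16 antigen presentation genes 10 rose (background 23.6%) and 1 fell. H2-Q7, a class Ib heavy chain gene, stood at 356, 336, 223, 183 and 520.1 RPKM in HOM and at 89.8, 67.9, 110.5, 169 and 65.1 in WT DN3 (log2 change 1.67, SE 0.32, adjusted p = 0.00142, edgeR). H2-D1, a classical heavy chain gene, went from 290.3 ± 63.1 to 509 ± 172 RPKM. Heavy chain genes of this family are near-copies of each other, and their reads may be shared. The immunoproteasome subunit genes Psmb9 and Psmb10 rose by 0.56 and 0.61, and Nlrc5, the transactivator of class I genes, by 0.71. Psmb8 passed with all libraries (log2 change 0.32) but missed the threshold with any 1 of HOM replicates 1, 2, 3 or 5 or WT DN3 replicates 1, 2, 4 or 5 left out (edgeR adjusted p = 0.0522 to 0.102). The class I heavy chain gene H2-K1 and the peptide transporter gene Tap1 did not pass, with log2 changes of 0.62 and 0.12. H2-K1 was called without HOM replicates 2, 3 and 4 (log2 change 1.08, edgeR adjusted p = 0.00377). It was also called with any 1 of HOM replicates 3 or 4 or WT DN3 replicate 4 left out (edgeR adjusted p = 0.0137 to 0.0478). Of the class II genes, Cd74, the invariant chain, stood at 6.99, 3.06, 1.55, 4.46 and 0.968 RPKM in HOM and at 1.32, 0.832, 0.144, 0.287 and 0.595 in WT DN3. In both groups the levels of H2-Q7 and B2m varied between libraries, lowest in HOM replicates 3 and 4 among HOM and highest in WT DN3 replicate 4 among WT. Of 21 interferon-stimulated genes 7 rose (33.3%) and 1 fell (4.76%), beside 23.6% and 20.7% of all genes tested. Irf7 stood at 47.5, 34.4, 17.002, 22.6 and 39.5 RPKM in HOM and at 5.20, 8.62, 18.3, 17.4 and 8.16 in WT DN3, with overlap, and Oasl1 at 19.9, 18.99, 9.53, 11.97 and 19.7 against 2.93, 3.36, 7.24, 7.02 and 3.40 RPKM. Isg15, Mx1 and Usp18 did not pass, with log2 changes of 0.70, 0.56 and -0.51.

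Proliferation genes changed by less than 2-fold, with 1 exception. Of 28 cell-cycle genes 10 fell (35.7%) and 4 rose (14.3%), beside 20.7% and 23.6% of all genes tested. Only Ccnd1 changed at least 2-fold, through HOM replicates 2 and 3 (30.96 and 12.9 RPKM, against 0.914, 3.49 and 0.625 in the others). Without HOM replicate 2 its log2 change was 2.62 instead of 3.73. Ccnd2, the main D cyclin gene of early thymocytes beside Ccnd3, went from 47.4 ± 3.38 to 26.6 ± 5.81 RPKM and E2f2 from 41.96 ± 1.43 to 25.6 ± 2.14. Mki67, Pcna and Top2a did not pass, with log2 changes of -0.08, -0.11 and -0.10. Cdkn1a, the gene of the cell-cycle inhibitor p21, stood at 3.87, 16.8, 9.47, 2.84 and 5.50 RPKM in HOM and at 21.95, 20.6, 31.1, 40.1 and 23.2 in WT DN3. Its log2 change was -1.85, and -2.75 without HOM replicates 2 and 3, its highest libraries. Other p53 target and Bcl2-family genes, 19 in all with Cdkn1a, had 6 higher and 2 lower calls, among them Trp53inp1 (0.58) and Bcl2l11 (-0.55). These calls were 31.6% and 10.5% of the 19, beside 23.6% and 20.7% of all genes tested.

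Some chromatin regulator genes fell. Of 30 NuRD and Polycomb subunit genes 11 fell (36.7%, beside 20.7% of all genes tested) and 1 rose, and the others did not pass the test. The lower calls were 7 without HOM replicates 2, 3 and 4. Chd3, a remodelling ATPase gene of NuRD, a corepressor with which BCL11B is known to associate, stood at 33.2, 36.9, 41.1, 29.1 and 44.1 RPKM in HOM and at 77.3, 71.7, 77.2, 80.9 and 77.2 in WT DN3 (log2 change -1.07, SE 0.10, adjusted p = 7.83e-06, edgeR). Chd4, the other ATPase gene, did not pass, at 149.8 RPKM in WT DN3 and 171 in HOM, except without HOM replicate 5 (edgeR adjusted p = 0.0307). Mbd3 and Ezh1 fell (log2 change -0.56 and -0.50). Uhrf1 and Dnmt1, which maintain DNA methylation, went from 314 ± 13.6 to 208 ± 15.3 and from 182 ± 18.6 to 140.3 ± 7.27 RPKM. Of 82 ribosomal protein genes 19.5% were called, and of 36 complex I genes 11.1%, beside 44.3% of all genes tested. These differences were not tested. The complex I count rested on the libraries used, as 11 of its genes were called higher without HOM replicates 2 and 3, 10 without HOM replicate 3 alone, and 3 with all. With any 1 of WT DN3 replicates 1, 2 or 4 left out, between 7 and 8 ribosomal protein genes were higher, against 14 with all.

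Voltage-gated and TRP channel genes, of which 19 of 141 reached 1 RPKM, were called in 10 cases as lower and in 5 as higher. These calls were 52.6% and 26.3% of the 19, beside 20.7% and 23.6% of all genes tested. Beside Scn4b, the lower genes were led by Kcnh3, Scn2b, Cacnb1 and Kcnh2, which went from 8.90 to 0.792, 4.78 to 0.468, 5.82 to 0.773 and 9.05 to 1.38 RPKM. Beside Trpm1, the potassium channel subunit gene Kcne3 was higher. It had no count in WT DN3 and a mean of 1.53 RPKM in HOM, at least 101-fold higher against a floor of 3 counts over the group. Among WNT and FGF ligand genes 5 of 41 were tested, and Wnt6, Wnt5b and Fgf3 rose. Fgf3 stood at 15.1, 5.59, 13.1, 5.52 and 25.1 RPKM in HOM and at 0, 0, 0.0242, 0 and 3.71 in WT DN3, with WT DN3 replicate 5 the highest of its group. Without that library the log2 change of Fgf3 was 10.05 instead of 3.94.

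**Figure D4:**
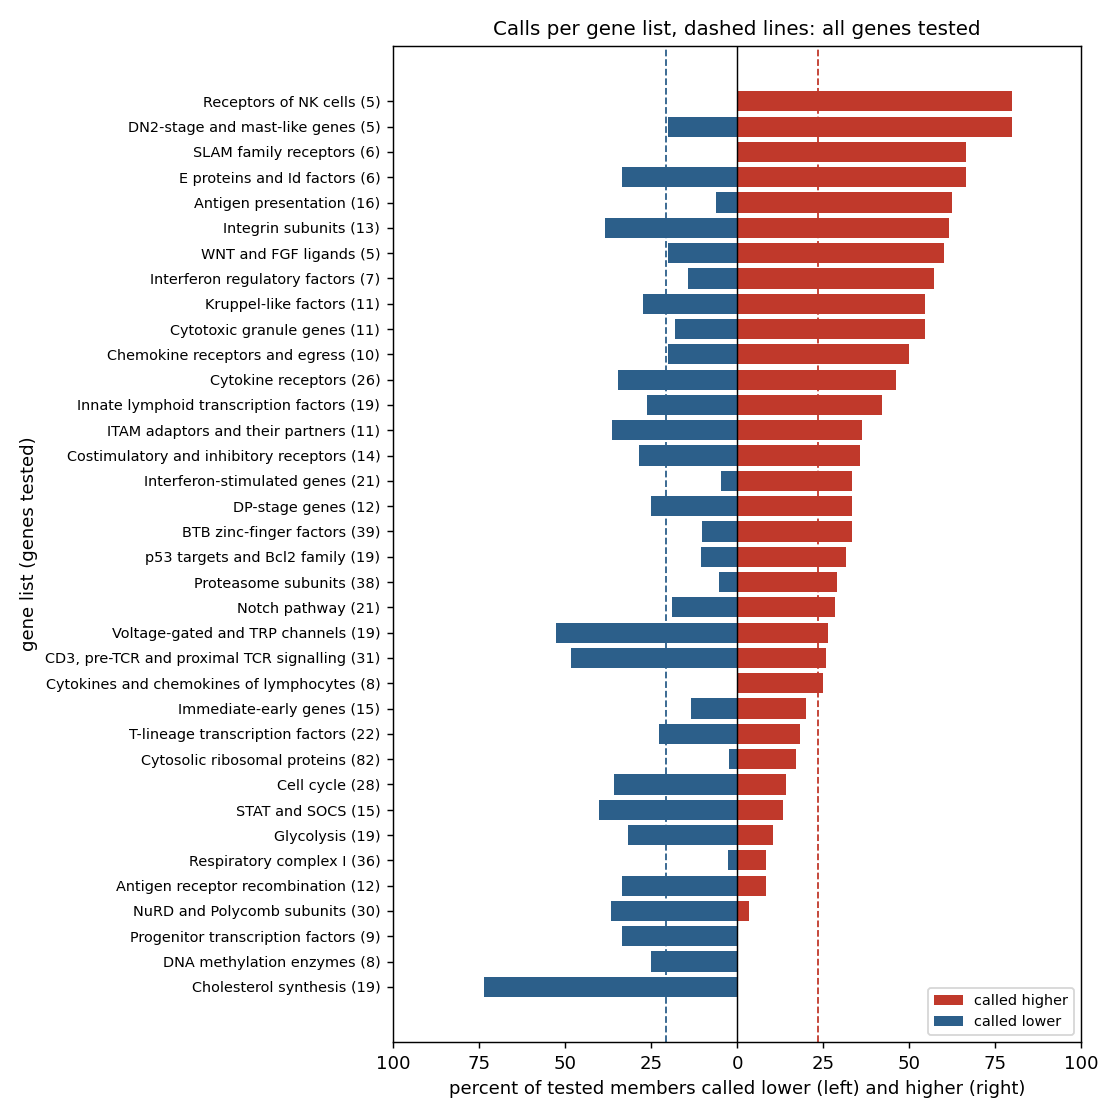
Percent of tested members called higher (right) and lower (left) in HOM for the gene lists described, with the shares over all genes tested (23.6% and 20.7%) as dashed lines and the number of genes tested in brackets. Cholesterol synthesis has no higher member, SLAM receptors have no lower member, and most lists have calls on both sides.

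At 3 loci picked after their values were seen, several neighbouring genes moved in the same direction, while others did not pass the test. Over all genes tested, 20.7% fell and 23.6% rose. Within 500000 bases of the CD3 genes on chromosome 9 (mm9), 19 genes were tested, of which 11 fell and 3 rose. Of the lower ones 10 run as a block from Cd3g (44777655 to 44788514) through Cd3d, Cd3e, Mpzl2, Mpzl3, Scn2b, Scn4b, Tmprss4 and BC049352 to Il10ra (45061920 to 45077232). Bcl9l, Cxcr5 (44319870 to 44334504) and Ddx6, at the other end of the window, rose. Phldb1, which lies apart from the block and next to Ddx6, fell from 3.99 ± 0.452 to 0.891 ± 0.378 RPKM. Mpzl3 missed the threshold with any 1 of HOM replicate 2 or WT DN3 replicates 1 or 3 left out (edgeR adjusted p = 0.0555 to 0.0615). Mpzl2 went from 43.3 ± 7.59 to 11.6 ± 10.7 RPKM (log2 change -1.92, and -2.65 without HOM replicate 5) and Tmprss4, a serine protease gene, from 4.04 ± 0.842 to 0.359 ± 0.181. Around Cd5 and Cd6 on chromosome 19, 10 of 17 genes fell, with Vwce and Tmem132a at log2 changes of -3.12 and -1.68, and 1 rose, the long noncoding RNA AW112010 by 1.14. Around Adgrg5 on chromosome 8, 9 of 19 genes rose, 1 fell and 9 did not pass. Adgrg1, which lies between Adgrg5 and Adgrg3, was among those that did not pass (log2 change 0.22, adjusted p = 0.509, edgeR). There Drc7 went from 0.986 ± 1.62 to 60.1 ± 10.8 RPKM, Adgrg3 from 4.42 ± 5.49 to 91.7 ± 21.5, and Kifc3, a kinesin gene, from 6.04 ± 0.499 to 75.1 ± 9.40. WT DN3 replicate 5 was the highest WT library for Drc7 and Adgrg3 (3.89 and 14.2 RPKM), and without it their log2 changes were 7.84 and 5.55 instead of 5.74 and 4.30. Within 500000 bases of Bcl11b, only 4 genes were tested, and besides Bcl11b only Setd3 was called (log2 change 0.26). These loci were chosen for their values, so the counts are descriptions.

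RNA of other cells could be followed through marker lists. The 13 epithelial genes summed to between 60.7 and 95.9 counts per 1000000 (CPM) in HOM replicates 1, 4 and 5, 955 and 423 in replicates 2 and 3, and 101 to 138 in WT DN3, where Cdh1, Epcam and Cldn4 alone exceeded 1 RPKM. Clu stood at 0.428, 185, 73.6, 0.719 and 0.475 RPKM in HOM and at 0.0321, 0, 0.0640, 0.0374 and 0.0258 in WT DN3. Krt8 stood at 11.5, 128, 55.98, 1.30 and 0.0433 RPKM in HOM, so that replicate 1 also held some. Krt5, Krt14, Foxn1 and Psmb11, which define thymic epithelium, had means of at most 0.131 RPKM in HOM. Of the 8 epithelial genes tested, 5 rose, while Epcam and Cldn4 fell at least 2-fold and Cdh1 did not pass. In the set without HOM replicates 2 and 3, 1 was called higher and 2 lower. Genes whose log2 change shrank most without HOM replicates 2 and 3 were Spp1 (from 9.52 to 6.08), Lgals2 (8.10 to 5.08), Krt8 (7.75 to 4.76), S100a6 (6.87 to 4.03), Krt19 (7.44 to 4.88) and Ccnd1 (3.73 to 1.19). Of these, Krt19 and Ccnd1 were no longer called without both libraries (edgeR adjusted p = 0.0509 and 0.0833). Clu, Krt7 and Krt18 dropped under the filter. Without HOM replicate 2 alone the log2 changes were 8.997 for Clu, 7.90 for Krt7, 4.89 for Krt18, 8.18 for Spp1, 6.83 for Lgals2, 6.65 for Krt8, 5.66 for S100a6 and 6.20 for Krt19. Without WT DN3 replicate 5 they were 10.999 for Krt8, 10.48 for Krt19, 10.01 for Krt7 and 10.42 for Lgals2, and without WT DN3 replicate 2 10.76 for Spp1. The part of epithelial RNA in the other calls was not tested beyond the counts without these libraries.

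HOM replicate 4 carried transcripts of pluripotent stem cells, a list of 14 genes put together after its values were seen. They summed to 628 CPM there, against at most 0.717 CPM in the other HOM libraries and at most 11.3 CPM in WT DN3, the highest of these in replicate 2. Pou5f1, the gene of OCT4, stood at 0, 0.0887, 0.0468, 78.3 and 0 RPKM in HOM and at 0, 0.868, 0, 0.0499 and 0.0345 in WT DN3. Dppa5a stood at 0, 0, 0, 153 and 0 RPKM in HOM and at 0.0913, 2.53, 0, 0 and 0.0366 in WT DN3, and Sox2 at 0, 0, 0, 18.2 and 0.0158 against 0, 0.395, 0, 0 and 0 RPKM. Every one of the 14 genes had counts in HOM replicate 4 and in WT DN3 replicate 2, and between 9 and 12 of them had none in each of the other libraries. Of 12 tested, Pou5f1 and Lin28a were called with all libraries (edgeR adjusted p = 0.0428 and 0.0366), and none was tested without HOM replicate 4. Without WT DN3 replicate 2 their log2 changes were 9.21 and 10.95 instead of 6.63 and 7.24. Pou5f1 missed the threshold with any 1 of WT DN3 replicates 1, 3, 4 or 5 left out (edgeR adjusted p = 0.0861 to 0.0921), and Lin28a missed the threshold with any 1 of WT DN3 replicates 1, 2, 3, 4 or 5 left out (edgeR adjusted p = 0.0755 to 0.0822). Without HOM replicates 2 and 3, where HOM replicate 4 is 1 of 3 libraries, 11 of these 12 were called, and without replicates 2, 3 and 4 none was tested. HOM replicate 4 was also the highest library for the globin gene Hba-a1 (11.4, 1.01, 0.228, 42.8 and 0 RPKM in HOM, at most 0.627 in WT DN3). Without it the log2 change of Hba-a1 was 3.43 instead of 5.26 and was not called (edgeR adjusted p = 0.0688), and Hba-a1 missed the threshold with any 1 of HOM replicate 4 or WT DN3 replicates 3, 4 or 5 left out (edgeR adjusted p = 0.0549 to 0.0688). Hba-a2 is a near-copy, so reads may be shared between them.

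**Figure D5:**
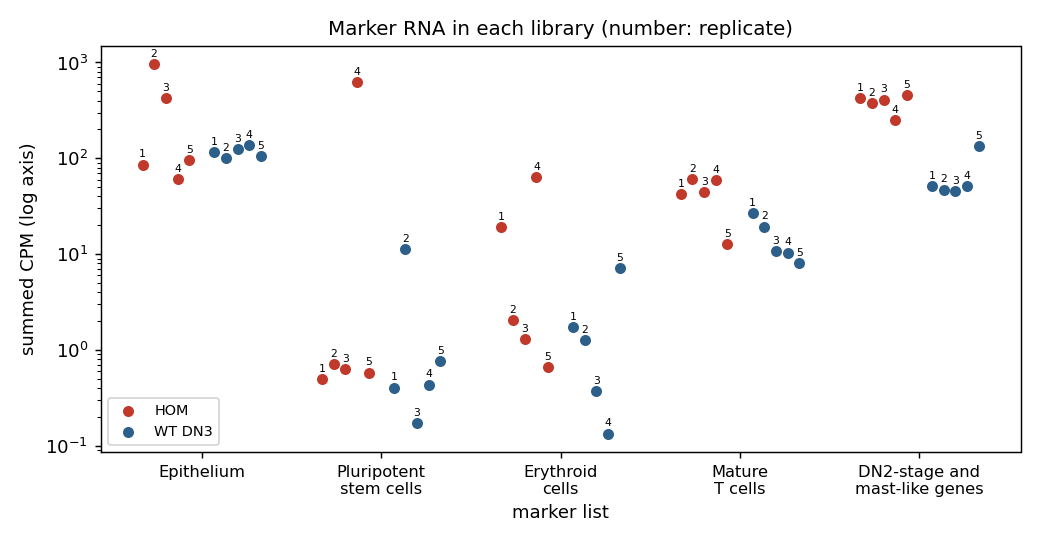
Summed CPM of the marker lists of epithelium, pluripotent stem cells, erythroid cells, mature T cells and DN2-stage genes in each library (log axis), with HOM and WT DN3 libraries in different colours. HOM replicates 2 and 3 stand out for epithelium (955 and 423 CPM), HOM replicate 4 for pluripotent stem cells (628 CPM), and WT DN3 replicate 5 for DN2-stage genes (135 CPM).

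Markers of other blood cells were low. The 4 genes of mature T cells summed to 12.9 to 60.4 CPM in HOM and 8.07 to 26.7 in WT DN3, and Ccl5 stood at 23.2, 0.303, 0.899, 15.98 and 0.886 RPKM in HOM. The 6 B-cell genes summed to 9.55 to 16.8 CPM in HOM and 19.1 to 28.5 in WT DN3, almost all from Cd79b, which fell (log2 change -1.10). The 8 NK-cell genes summed to 2.43 to 17.1 CPM in HOM and 1.75 to 4.86 in WT DN3, and the 8 myeloid genes to 4.38 to 13.6 and 5.84 to 24.1 CPM. The 8 genes of DN thymocytes summed to 6151 to 7479 CPM in HOM and to 8424 to 9138 in WT DN3, so both groups carried the marker RNA of the cells that the labels name. The part of these cells in the gene changes above was not tested.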

How the data were processed

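RNA was sequenced from sorted thymocytes, and the 10 libraries compared came from 1 deposited table of 24505 genes. Its values are raw counts: per the file headers, the authors counted reads over the exons of each gene with HOMER, with 1 entry per gene, no adjustment and build mm9. The submitters' processing notes also list Trimmomatic 033, STAR 2.4.0, RSEM 1.2.25 and edgeR 3.6.8, and builds mm9 and NCBIM37. Whether strand was counted is not given in the sources used here.

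RPKM and CPM were computed here from the counts, the deposited gene length and the library total, with pandas 2.3.3, numpy 2.4.6 and SciPy 1.17.1 in Python 3.11.15. Genes with a mean of at least 1 RPKM in HOM or in WT DN3 were tested (11717) in R 4.3.3 with edgeR 4.0.16, by TMM normalization and the quasi-likelihood test, with Benjamini-Hochberg adjustment over all of them. Called genes have an adjusted p under 0.05. Every adjusted p in the text comes from that tool unless another is named, and log2 changes are HOM minus WT DN3. The fit was tested on simulated data first. No pair of libraries within a group agreed within sampling noise (chi-square per gene 4.98 to 99.7), and each was counted as 1 replicate. The closest pairs were WT DN3 replicates 1 and 2 (4.98) and HOM replicates 2 and 3 (17.7). These values cannot show whether libraries came from separate animals.

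Of the other Lck-Cre libraries, 10 columns were displaced against the gene names from the gene symbols that read as dates on (26 such symbols). Moved back, they correlated across genes with the mean of the columns in place, on log2 counts, at 0.964 to 0.990 instead of 0.046 to 0.454 in the parts displaced, and 1106 genes that could not be placed stayed out of the fits that use them. None of the HOM and WT DN3 columns was displaced.

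The genes named were Bcl11b, Id2 and Zbtb16, the 12 higher and 12 lower called genes with the largest log2 change at 5 RPKM or more and no overlap, and the 6 with the largest difference in RPKM each way. To these came at most 6 called members of each list by adjusted p, uncalled members that describe it, and the 6 genes that lost most without HOM replicates 2 and 3. Some genes that this rule names are not reported here. Further called genes were named for their role, as partners of these or by locus, after their values were seen. Members and lists were chosen with earlier results of these data known, and the list of pluripotent stem cells and the 3 loci after values were seen. Alternatives were RLE size factors, DESeq2 1.42.0, limma 3.58.1 on log2(RPKM + 1), other filters, a replicate block, further Lck-Cre libraries in the fit, and libraries left out.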

Additional observations from a re-analysis of the deposited data

Results flagged for a closer look

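In 60 of 522 sets of 5 values, those of a gene named here or of a marker list within HOM or WT DN3, 1 library lay apart from the other 4 by Dixon's test at the 95% level. That is 11.5% of the sets. The test gives about 1 in 20 by chance only for normally distributed values, and some sets had counts in 1 library alone. Some genes and the list of pluripotent stem cells were also chosen after the values of these libraries were seen. The share is therefore a description and cannot be set against chance. The values are given in RPKM unless CPM is named, and their causes were not tested.

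WT DN3 replicate 5 stood above the other 4 libraries of its group for Adgrg3 at 14.2, Adgrg5 at 0.622, Cd244 at 1.15, Cd63 at 0.574, Cpa3 at 26.2 and Drc7 at 3.89 RPKM. It also held the highest level of Fcer1g at 1.497, Fgf3 at 3.71, Hhex at 4.88, Kit at 15.6, Krt19 at 0.287 and Krt8 at 0.595 RPKM. Further genes with a high level there were Lgals2 at 0.119, Lyl1 at 9.62, Npffr1 at 0.0178, Pecam1 at 30.3, Rab27a at 66.7 and Sox13 at 33.3 RPKM. The same held for Stat5a at 95.1, Tmsb10 at 161, Tyrobp at 4.19 and Zbtb16 at 0.105 RPKM. Of the summed marker lists, it was high for DN2-stage and mast-like genes at 135 CPM, endothelium and fibroblasts at 102 CPM, erythroid cells at 7.19 CPM and myeloid and dendritic cells at 24.1 CPM. HOM replicate 4 stood above the other 4 libraries of its group for Cd4 at 6.70, Dppa5a at 153, Hba-a1 at 42.8, Hba-a2 at 42.5, Lin28a at 12.3 and Pou5f1 at 78.3 RPKM. It also held the highest level of Slc2a1 at 25.6, Slc2a3 at 22.1 and Sox2 at 18.2 RPKM. It stood below its group for Adgrg5 at 1.19 RPKM. Of the summed marker lists, it was high for pluripotent stem cells at 628 CPM.

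HOM replicate 5 stood above the other 4 libraries of its group for Cd3g at 594, Fam163b at 4.06, Il10ra at 3.39, Kif7 at 1.72, Mpzl2 at 30.2 and Nkg7 at 30.7 RPKM. It also held the highest level of Scn4b at 1.44 RPKM. It stood below its group for Ptprc at 138 RPKM. WT DN3 replicate 2 stood above the other 4 libraries of its group for Dppa5a at 2.53, Lin28a at 0.0981, Pou5f1 at 0.868, Sox2 at 0.395 and Spp1 at 0.199 RPKM. Of the summed marker lists, it was high for pluripotent stem cells at 11.3 CPM. HOM replicate 2 stood above the other 4 libraries of its group for Cd9 at 40.7 and Trp53inp1 at 55.4 RPKM. HOM replicate 1 stood above the other 4 libraries of its group for Gzmb at 6.29 and Nfil3 at 18.6 RPKM. HOM replicate 3 stood above the other 4 libraries of its group for Itgae at 1.79 and Kcnh3 at 1.56 RPKM. WT DN3 replicate 3 stood above the other 4 libraries of its group for Rpl10 at 1282 RPKM. It stood below its group for Tnfsf10 at 4.87 RPKM. WT DN3 replicate 4 stood above the other 4 libraries of its group for Ezh1 at 13.8 RPKM.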

How the results depend on the processing

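The 5192 genes called became 5188 with RLE size factors, 5611 with DESeq2, 5129 with limma, 5818 over every gene with a read, 4118 at 5 RPKM or more, and 4690 and 4705 with 15 and 25 Lck-Cre libraries in the fit. Without HOM replicates 1, 2 and 3, which leaves 2 HOM libraries, 3359 genes were called, 1455 of them lower. The 1443 genes called at 2-fold or more became 2317 over every gene with a read, 790 at 5 RPKM or more, which tests fewer genes, and 904 with limma, whose added 1 RPKM shrinks the changes of low genes. With 1 library left out the ranges were 4330 to 5435 genes called, 2317 to 2927 higher, 2013 to 2508 lower and 1311 to 1601 at 2-fold or more, and the log2 changes were -1.17 to -0.997 for Bcl11b, 3.73 to 3.86 for Id2 and 8.45 to 10.08 for Zbtb16. With a replicate block in the model 4393 genes were called, and libraries of the same number did not deviate together (r = -0.147 to 0.047 over the 5 numbers, across genes), none correlating best with its own number. Of 221 called genes named, 164 kept call and direction in each of the 21 alternatives run on them. 200 of 4569 pairs of gene and alternative lost the call and 1 changed sign. Of 1932 counts of list members, 1672 stayed within 1.5 times. The causes were not tested. Log2 changes that turned sign were, apart from that of Gsta4, all of genes not called with all libraries. Cd4 turned to -0.036 over every gene with a read, -0.17 with limma and -0.64 with the replicate block. Without HOM replicates 1, 2 and 3, Mki67 stood at 0.0082 and Pcna at 0.059. Without HOM replicates 2 and 3, Cdh1 stood at -0.080, Mki67 at 0.034, Pcna at 0.030 and Top2a at 0.016. Without HOM replicates 2, 3 and 4, Cd4 stood at -1.15, Hes1 at 0.11, Lef1 at -0.14 and the called gene Gsta4 at -0.66. With 1 library left out, log2 changes that turned sign ran from -1.09 to 0.54 for Cd4, from -0.32 to 0.034 for Cyp51, from -0.12 to 0.39 for Dtx1, from -0.26 to 0.035 for Mki67, from -0.025 to 0.27 for Tap1 and from -0.27 to 0.016 for Top2a. The set without HOM replicates 2, 3 and 4 was added after the data were seen. The library of fewest counts in each group, HOM replicate 4 and WT DN3 replicate 1, limits how well genes near 1 RPKM are measured.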

Other observations

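Some genes outside the groups described above also rose or fell. Of 15 immediate-early genes, whose RNA rises within minutes of a signal, 3 rose and 2 fell (beside 23.6% and 20.7% of all genes tested), and the relatives Nr4a1 and Nr4a2, both nuclear receptor genes induced by antigen receptor signals, went opposite ways. Nr4a1 stood at 0.687, 1.77, 4.58, 2.34 and 1.12 RPKM in HOM and at 10.7, 10.6, 9.97, 12.7 and 6.35 in WT DN3 (log2 change -2.26, SE 0.42, adjusted p = 0.00128, edgeR). Nr4a2 stood at 1.81, 1.79, 1.997, 2.14 and 1.005 RPKM in HOM and at 0.633, 0.565, 0.372, 0.591 and 0.508 in WT DN3 (log2 change 1.71, SE 0.26, adjusted p = 3.10e-04, edgeR). Ier5 and Klf6 rose by 1.44 and 0.54 on the log2 scale, and Btg2, an antiproliferative gene, fell (log2 change -0.68). Of 7 interferon regulatory factor genes 4 rose, Irf1, Irf2, Irf5 and Irf7, and Irf8, a factor of dendritic cells and B cells, fell, from 4.90 ± 0.880 to 2.69 ± 0.280 RPKM. Irf5 missed the threshold with any 1 of WT DN3 replicates 1, 2 or 3 left out (edgeR adjusted p = 0.059 to 0.0663).

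Most proteasome subunit genes, 25 of 38, did not pass the test. Of the 38, 11 rose (28.9%) and 2 fell (5.26%), beside 23.6% and 20.7% of all genes tested. The median log2 change was 0.10, and none of the 38 reached 2-fold. Between 6 and 7 of them were called higher with any 1 of HOM replicate 1 or WT DN3 replicates 1, 2 or 4 left out. Of 8 DNA methylation genes 2 fell (25%, beside 20.7% of all genes tested), the maintenance genes described above, and 0 rose. Of 4 SOX genes tested 3 fell. Among the genes of endothelium and fibroblasts only Pecam1, which thymocytes also express, was tested, and it rose by 0.70 on the log2 scale. Lyz2, a lysozyme gene of myeloid cells, fell from 6.27 ± 1.87 to 1.34 ± 1.11 RPKM.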
